A study of Mus musculus with 4 samples.

Results

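The genes described here encode 6 enzymes of NADPH supply: G6pdx, Pgd, Taldo1, Tkt, Me1 and Idh1. They were found as every non-control probe that carried one of these gene names on the arrays, which gave 10 of 41174 probes, and all 6 genes had at least 1 probe that could be tested. The tested cells were primary aortic smooth muscle cells of mice homozygous for a floxed Atg7 allele with SM22α-Cre (Atg7F/F SM22α-Cre+). They were set against the same cells from mice with the normal allele and the same Cre (Atg7+/+ SM22α-Cre+), all of the strain that the labels write as C57LB/6. Cre is driven by the SM22α promoter in both genotypes, so the controls carry it too. The cultures were kept in DMEM/F-12 with 10% FBS and used between passages 4 and 10. Atg7 encodes an activating enzyme of the ubiquitin-like conjugation steps by which autophagosomes form.

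NADPH is the electron donor for glutathione and thioredoxin reductases and for the synthesis of fatty acids and cholesterol. G6pdx and Pgd encode the enzymes of the oxidative pentose phosphate branch that make NADPH from glucose 6-phosphate. Tkt and Taldo1 encode the enzymes of the non-oxidative branch, which return the pentoses to glycolysis. Me1 and Idh1 encode cytosolic enzymes that make NADPH from malate and from isocitrate. In mouse and human cells, genes of this set are known targets of NRF2, a transcription factor of the antioxidant response that binds antioxidant response elements.

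Each genotype had 2 biological replicates, and RNA of the 2 genotypes with the same replicate number was hybridised together on 2 arrays with exchanged dyes. The labels do not tie the replicates to separate animals, so p-values rest on the spread between these samples, which may be technical. The test also borrows from the spread of all genes, with 2.18 of its 3.18 degrees of freedom. The 4 arrays lay on 1 slide and were scanned on 1 day. In each channel between 43.3% and 45.5% of the gene spots were well above background, and 0 were saturated. Atg7 had a log2 ratio of -1.17 in replicate 1 and of -1.26 in replicate 2, by a probe whose place relative to the floxed part is not given in the labels. Over the 12367 genes tested, dye-swapped arrays correlated at 0.69 in replicate 1 and 0.81 in replicate 2, while the ratios of the 2 replicates correlated at -0.10 with each other. Smooth muscle identity was checked with 8 markers, of which 7 were measured and Myocd was not well above background. Of the 7, 0 were higher and 2 lower in Atg7F/F on all 4 arrays, Acta2 and Tagln, named after their values were seen, and the median log2 ratio was -0.14. The log2 of their summed signals was 17.97 and 17.58 in Atg7F/F replicates 1 and 2, against 18.03 and 17.85 in the Atg7+/+ replicates. Bright probes weigh most in this sum, and the later marker sums are formed the same way. Of 9 endothelial markers, 7 were lower in Atg7F/F on all 4 arrays. The endothelial sum was 12.37 and 12.29 in Atg7F/F replicates 1 and 2, against 12.38 and 13.39 in the Atg7+/+ replicates. The part of these 2 marker lists in the ratios below was not tested. Of 7 leukocyte and macrophage markers, Ptprc, Adgre1 and Itgam were not well above background. The other 4, Csf1r, Lyz2, Cd14 and Cd68, were measured. Of these 4, 1 was higher and 2 lower in Atg7F/F on all 4 arrays. They summed to 10.93 and 12.15 in Atg7F/F, against 11.33 and 11.65 in Atg7+/+. Of the 6 fibroblast markers, 0 were higher and 2 lower on all 4 arrays. Their median log2 ratio was -0.35 in replicate 1 and 0.29 in replicate 2. Their sum was 12.83 and 12.13 in Atg7F/F, against 13.17 and 12.36 in Atg7+/+. The part of the leukocyte and fibroblast lists in the ratios below was not tested either. In cultures of many cells, fewer cells of a type and less RNA per cell cannot be told apart.

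The letters that NRF2 with its small MAF partner is known to bind were looked for in the promoters, because the 6 genes share this factor as a known regulator. RefSeq windows on GRCm38.p6 run from before to after each annotated start, and 9 windows of 300 bases matched the 6 genes. The motif TGACNNNGC was searched on both strands. It was chosen after the files were seen, and narrower forms that were also looked at were not kept. It was found in 3 of the 9 windows, against 12.4% of all 32851 windows. These were the windows of G6pdx, of the upstream start of Me1 and of a downstream start of Pgd. Taldo1, Tkt and Idh1 had no match, which says only that these letters are not in their windows. In the Pgd window the match began at base 4 after the start. The stretches of G6pdx and Me1 are shown because their matches begin before the start, by 57 and 6 bases, and the one of Me1 runs across the start. Each runs from 150 bases before to 20 bases after the start on the strand of the gene, with the motif in capitals. The G6pdx stretch is chrX:74428861-74429030 on the minus strand, and there the motif reads on the opposite strand as TGACTGAGC. The Me1 stretch is chr9:86695895-86696064, also on the minus strand.
G6pdx: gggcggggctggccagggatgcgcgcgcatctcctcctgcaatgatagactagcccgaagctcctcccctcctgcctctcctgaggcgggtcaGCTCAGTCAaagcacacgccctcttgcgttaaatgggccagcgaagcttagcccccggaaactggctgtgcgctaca
Me1: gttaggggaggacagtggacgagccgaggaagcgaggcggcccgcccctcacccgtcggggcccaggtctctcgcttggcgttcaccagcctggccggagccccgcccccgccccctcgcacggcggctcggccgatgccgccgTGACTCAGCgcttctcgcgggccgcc

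None of the 6 genes passed the test of the genotype difference. Pgd, Taldo1 and G6pdx averaged 1.30-, 1.26- and 1.25-fold higher in Atg7F/F cells, Tkt averaged 1.17-fold lower, and Me1 and Idh1 averaged 1.00- and 1.07-fold. Pgd and Taldo1 were higher in both replicates and mainly in replicate 1. Tkt was lower in both by nearly the same amount, while G6pdx was higher in replicate 2 alone. Log2 ratios are Atg7F/F over Atg7+/+, and a replicate's value averages both of its arrays. They were tested against 0 with limma and adjusted by Benjamini-Hochberg over 12367 genes. At an adjusted p below 0.05, limma called 0 of the 6 genes, where it called 0% of all genes higher and 0% lower. With this processing limma also counted 0 of the 6 at an unadjusted p below 0.05. At that cutoff 166 of all genes (1.34%) were higher and 203 (1.64%) lower. With the 4 arrays fitted as random blocks of a pair, limma called 7 genes higher and 2 lower, none of them among the 6. The smallest two-sided p that an exact permutation of signs allows with 2 replicates is 0.5. Of the 6, 1 was higher on all 4 arrays, where 10.6% of all genes were, and 0 were lower on all 4, where 9.95% of all genes were. In both replicates 2 of the 6 were higher, where 23.4% of all genes were, and 1 was lower, where 22.1% were. The median log2 ratio of the 6 was 0.21, beside 0.00 over all genes tested, with -0.06 in replicate 1 and 0.20 in replicate 2. It lay above the medians of both replicates, because different genes were high in each. Pgd and Taldo1 were highest in replicate 1 and G6pdx in replicate 2.

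**Figure D1:**
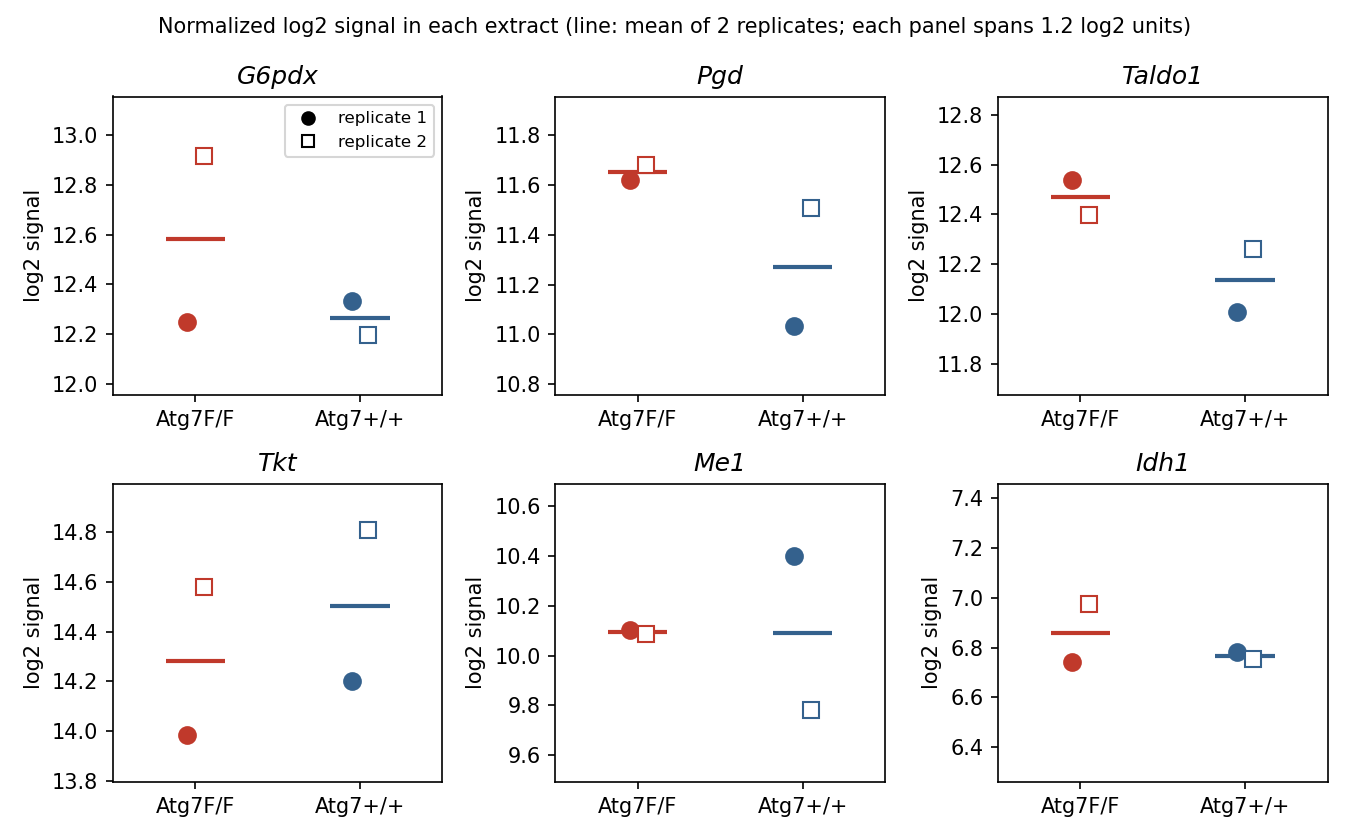
Normalized log2 signal of the probe that stands for each gene (y axis) in the 2 extracts of each genotype (x axis, Atg7F/F left). Circles are replicate 1, squares replicate 2 and lines the mean of 2 replicates. Both Atg7F/F extracts lie above both Atg7+/+ extracts for Pgd and Taldo1, and the groups overlap for the other 4 genes.

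The plot of signal by extract gives the brightness of 1 probe per gene in each extract. For 2 of the 6 genes, Pgd and Taldo1, both Atg7F/F extracts lay above both Atg7+/+ extracts, where 11.4% of all genes did. For 0 of the 6 did both lie below, where 10.1% of all genes did. Levels of different probes are not comparable, so only the extracts within a gene are set side by side.

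G6pdx encodes glucose-6-phosphate dehydrogenase, the first and rate-limiting enzyme of the oxidative branch. Its probe lies at chrX:71654949-71655008 of mm9 on the minus strand. In Cy5 its raw signal was 6066 and 8107 in Atg7F/F replicates 1 and 2, against 6041 and 5126 in the Atg7+/+ replicates. In Cy3 it was 4277 and 6526 in Atg7F/F, against 4708 and 4157 in Atg7+/+. In both dyes the Atg7F/F extract of replicate 2 was the brightest and the other 3 extracts lay closer together. After normalization the log2 signals were 12.25 and 12.92 in Atg7F/F and 12.33 and 12.20 in Atg7+/+, so the groups overlapped. The log2 ratios were -0.21 and 0.04 on the arrays of replicate 1 and 0.59 and 0.85 on those of replicate 2, with Atg7F/F in Cy5 first. Replicate 1 thus averaged -0.08 and replicate 2 averaged 0.72. The mean was 0.32 ± 0.57 (SD, n = 2), with a 95% interval of limma from -0.42 to 1.06 and an adjusted p of 0.9998. The gap between the replicates was 0.80 log2 units, and 4.77% of all genes tested had a gap at least as large. Its promoter, shown above with a motif, is one of the 3 that held it.

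Pgd encodes 6-phosphogluconate dehydrogenase, which makes the other NADPH of the oxidative branch, and it was measured by 2 probes past the filter. The brighter one lies at chr4:148524812-148524871 of mm9 and the other at chr4:148524293-148524352, both on the minus strand and 459 bases apart. The brighter probe is printed, as deposited, because its ratio moved most between the dyes.
Pgd probe: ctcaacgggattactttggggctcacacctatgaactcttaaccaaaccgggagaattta

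With the brighter Pgd probe the raw Cy5 signal was 3432 and 2970 in Atg7F/F replicates 1 and 2, against 2196 and 2955 in the Atg7+/+ replicates. In Cy3 it was 3135 and 3109 in Atg7F/F, against 2118 and 2813 in Atg7+/+. The Atg7+/+ extract of replicate 1 was the dimmest of the 4 in both dyes. Normalized log2 signals were 11.62 and 11.68 in Atg7F/F, against 11.03 and 11.51 in Atg7+/+, and the groups did not overlap. The log2 ratio was 0.59 in replicate 1 and 0.17 in replicate 2. The mean was 0.38 ± 0.30 (SD, n = 2), with a 95% interval of limma from -0.07 to 0.83 and an adjusted p of 0.9998.

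The single arrays of this Pgd probe gave 0.16 with Atg7F/F in Cy5 and 1.02 with Atg7F/F in Cy3 in replicate 1. In replicate 2 they gave -0.21 and 0.55 in the same order. The dye gap was therefore 0.87 and 0.77 log2 units, larger than the gap of replicate 2 minus replicate 1, -0.42. For this probe the error that the scanner software itself gives to a log2 ratio was 0.20 to 0.22. The other Pgd probe gave 0.60 and 0.67 in replicate 1 and 0.22 and 0.26 in replicate 2, so its arrays were higher in 4 of 4. Its dye gaps were 0.06 and 0.05. Averaged over the dyes, the 2 probes differed by -0.05 in replicate 1 and -0.07 in replicate 2. The mean of the other probe was 0.44 ± 0.28 (SD, n = 2), 1.35-fold higher in Atg7F/F cells. In the fit of every probe, limma gave it an adjusted p of 0.9997 (0.0465 unadjusted).

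**Figure D2:**
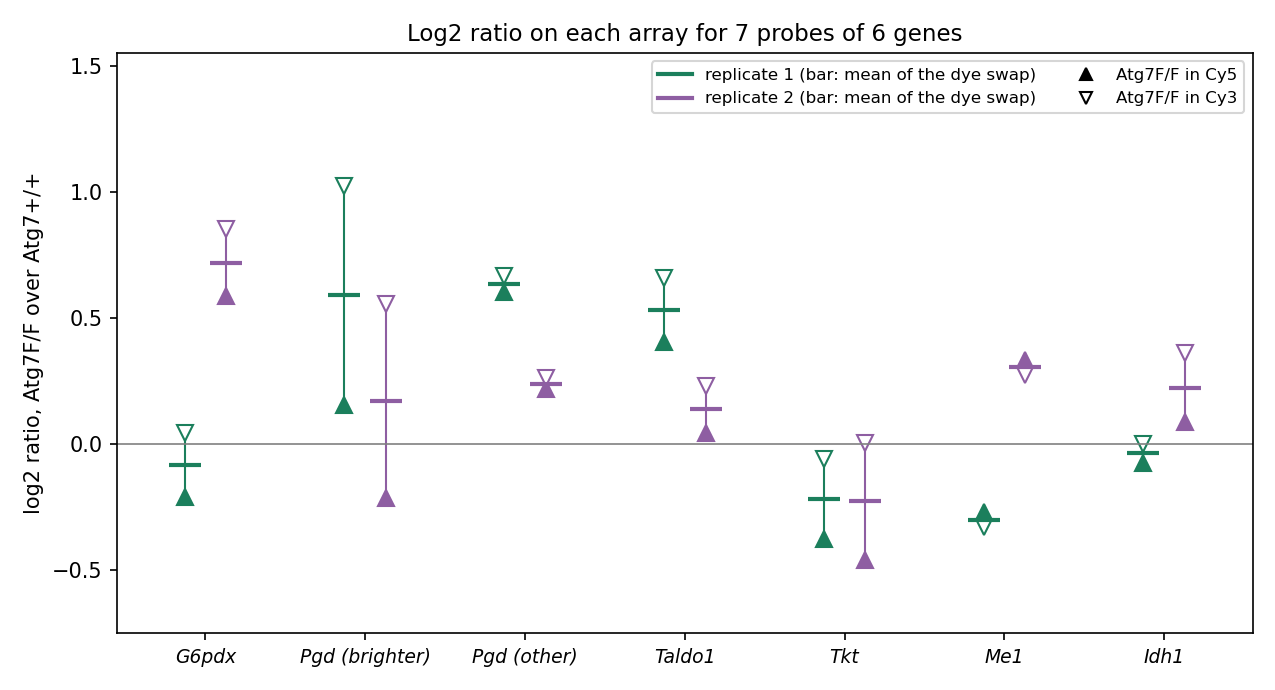
Log2 ratio of Atg7F/F over Atg7+/+ (y axis) on each of the 4 arrays for the 7 probes past the filter (x axis). Filled triangles have Atg7F/F in Cy5 and open triangles in Cy3, and bars are the mean of a dye swap. The brighter Pgd probe spans 0.87 and 0.77 log2 units between the dyes, against 0.06 and 0.05 for the other Pgd probe.

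Taldo1 encodes transaldolase, which moves 3-carbon units between sugar phosphates in the non-oxidative branch. Its probe lies at chr7:148588764-148588823 of mm9 on the plus strand. In Cy5 the raw signal was 7754 and 5676 in Atg7F/F replicates 1 and 2, against 4617 and 5349 in the Atg7+/+ replicates. In Cy3 it was 5010 and 4456 in Atg7F/F, against 3928 and 4315 in Atg7+/+. Both Atg7F/F extracts were brighter than both Atg7+/+ extracts in each dye, and the largest distance was in replicate 1. Normalized log2 signals were 12.54 and 12.40 in Atg7F/F, against 12.01 and 12.26 in Atg7+/+. The log2 ratios were 0.40 and 0.66 on the arrays of replicate 1 and 0.05 and 0.23 on those of replicate 2. Taldo1 was the 1 gene of the 6 whose standing probe was higher on all 4 arrays. The mean was 0.33 ± 0.28 (SD, n = 2), with a 95% interval of limma from -0.09 to 0.76 and an adjusted p of 0.9998. The replicate means of Taldo1, 0.53 and 0.14, lay close to those of Pgd, 0.59 and 0.17.

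Tkt encodes transketolase, the thiamine-dependent partner of transaldolase in the non-oxidative branch. Its standing probe lies at chr14:31386641-31386700 of mm9 on the plus strand. It is printed because it is the 1 of 3 Tkt probes past the filter and the only standing probe below 0 in both replicates.
Tkt probe: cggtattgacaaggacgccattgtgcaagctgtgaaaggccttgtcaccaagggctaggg

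In Cy5 the raw signal of this Tkt probe was 20040 and 26277 in Atg7F/F replicates 1 and 2, against 22088 and 31734 in the Atg7+/+ replicates. In Cy3 it was 13787 and 21422 in Atg7F/F, against 16483 and 24915 in Atg7+/+. Replicate 2 was brighter than replicate 1 in both genotypes, by 0.60 log2 units in Atg7F/F and 0.61 in Atg7+/+ after normalization. Within each replicate and dye, Atg7F/F was dimmer than Atg7+/+. The normalized log2 signals, 13.98 and 14.58 in Atg7F/F and 14.20 and 14.81 in Atg7+/+, therefore overlapped between the genotypes although the ratios of both replicates lay below 0. The log2 ratio was -0.22 in replicate 1 and -0.23 in replicate 2. The mean was -0.22 ± 0.01 (SD, n = 2), with a 95% interval of limma from -0.48 to 0.04 and an adjusted p of 0.9998. That SD leaves out the spread between dyes, which was 0.31 in replicate 1 and 0.46 in replicate 2, and the array of replicate 2 with Atg7F/F in Cy3 gave 0.01. With each array centred on its median in place of loess, the mean was -0.09. Of the other 2 Tkt probes, the one at chr14:31387724-31387783 was well above background on 2 of 4 arrays in Atg7F/F and 3 of 4 in Atg7+/+. The one at chr14:31375465-31375524 was well above background on 0 arrays in either genotype.

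Me1 encodes cytosolic malic enzyme, which makes NADPH while turning malate into pyruvate. Its probe past the filter lies at chr9:86475291-86475347 of mm9 on the minus strand. In Cy5 the raw signal was 1396 and 1107 in Atg7F/F replicates 1 and 2, against 1625 and 988 in the Atg7+/+ replicates. In Cy3 it was 928 and 871 in Atg7F/F, against 1174 and 732 in Atg7+/+. Both Atg7F/F extracts lay between the 2 Atg7+/+ extracts in each dye. Normalized log2 signals were 10.10 and 10.09 in Atg7F/F, against 10.40 and 9.78 in Atg7+/+. The log2 ratio was -0.30 in replicate 1 and 0.30 in replicate 2, with dye gaps of 0.06 in each. The opposite signs of the replicates were therefore held by both dyes. The mean was 0.00 ± 0.43 (SD, n = 2), with a 95% interval of limma from -0.58 to 0.59 and an adjusted p of 0.9998. Opposite signs in the replicates were found for 54.5% of all genes tested, and 8.69% had a gap at least as large as that of Me1. The other Me1 probe, at chr9:86480030-86480089, was designed on an mRNA whose record names a Mod-1 null malic enzyme, Mod-1 being an older name of the gene. It was well above background on 0 arrays in either genotype.

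Idh1 encodes the NADP-dependent isocitrate dehydrogenase of the cytosol and peroxisomes. Its 1 probe lies at chr1:65206035-65206094 of mm9 on the minus strand and was the dimmest of those past the filter. The raw Cy5 signal was 119 and 122 in Atg7F/F replicates 1 and 2, against 119 and 106 in the Atg7+/+ replicates. In Cy3 it was 81.0 and 93.3 in Atg7F/F, against 81.9 and 79.8 in Atg7+/+. The signal was 1.37 to 2.12 times its local background, and the scanner software placed it well above background in each channel of the 4 arrays. Normalized log2 signals were 6.74 and 6.98 in Atg7F/F, against 6.78 and 6.75 in Atg7+/+. The Atg7F/F extract of replicate 2 stood above the other 3. The mean log2 ratio was 0.09 ± 0.18 (SD, n = 2), with -0.04 in replicate 1 and 0.22 in replicate 2. The 95% interval of limma ran from -0.25 to 0.44 and the adjusted p was 0.9998. The size of the mean moved with the background correction. It was 0.19 with no offset and 0.35 with the software's processed signals.

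The 6 genes fell into different patterns over the replicates. Pgd and Taldo1 lay to the right in the plot of replicate 1 against replicate 2, with replicate 2 minus replicate 1 at -0.42 and -0.39 log2 units. G6pdx, Me1 and Idh1 had a negative ratio in replicate 1 and a positive one in replicate 2, at gaps of 0.80, 0.60 and 0.26. The median gap over all genes was 0.17. Only the ratio of Tkt differed by less than the dye gap and the median gap alike, at -0.01 between replicates.

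**Figure D3:**
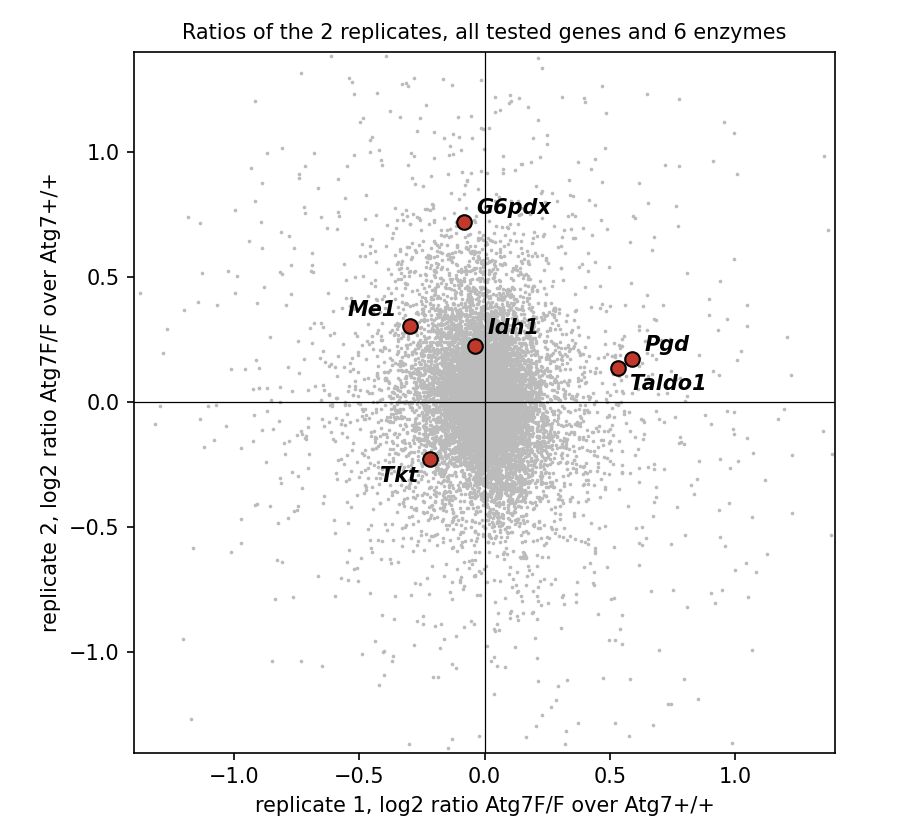
Log2 ratio of Atg7F/F over Atg7+/+ in replicate 1 (x axis) against replicate 2 (y axis) for the 12367 genes tested, with 108 genes beyond the axes not drawn. The 6 enzymes (red) sit in 3 quadrants: Pgd and Taldo1 above 0 in both replicates, Tkt below 0 in both, and G6pdx, Me1 and Idh1 below 0 in replicate 1 alone.

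Likeness of pattern was measured as the Euclidean distance over the 4 single-array log2 ratios to the mean of the 6 genes. The nearest other genes were Ncstn, Tysnd1, Ncbp2, Pex6 and Zfp787, at distances from 0.05 to 0.08. Their means ran from 0.12 to 0.14 log2 units. Of the 6 genes themselves, Idh1 was nearest to their mean at 0.23, with 281 genes closer. The other 5 lay at 0.66 to 0.89, with 7897 genes closer than Taldo1 and 10579 closer than Pgd.

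The rest of the pathway was read from 5 lists, compiled with earlier results of these data known. Of 14 pentose phosphate genes 12 were tested, the 4 enzymes above among them, and 0 passed limma's test in either direction. On all 4 arrays 2 were higher, Taldo1 and H6pd, and 0 were lower, beside the 10.6% and 9.95% of all genes. H6pd encodes the glucose-6-phosphate dehydrogenase of the endoplasmic reticulum. Its log2 ratio was 0.18 in replicate 1 and 0.49 in replicate 2, with a mean of 0.33 ± 0.22 (SD, n = 2) and 0.13 by its other probe. The median of the 12 was 0.09, with -0.02 in replicate 1 and 0.15 in replicate 2. Endothelial markers, 7 of 9 of which were lower on all 4 arrays, had a median of -0.37 in the same extracts. The medians of all 5 lists differed in sign between the replicates.

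Of 12 other genes listed around NADPH and NADP supply, 11 were tested and 0 passed. Higher on all 4 arrays were 4 and lower 0, beside 10.6% and 9.95% of all genes. The median was 0.03, with 0.07 in replicate 1 and -0.01 in replicate 2. Aldh1l2, the mitochondrial 10-formyltetrahydrofolate dehydrogenase, had the highest mean among them, 0.36 ± 0.29 (SD, n = 2), with 0.19 by its other probe. Mthfd1l, the mitochondrial formyltetrahydrofolate synthetase, followed at 0.34 ± 0.13 (SD, n = 2). Replicate 2 was the higher one for both, at 0.57 and 0.43, against 0.16 and 0.24 in replicate 1.

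Among NADPH-using reductases 17 of 18 were tested and 0 passed. On all 4 arrays 4 of them were higher and 0 lower, beside 10.6% and 9.95% of all genes. Their median was 0.00, with 0.08 in replicate 1 and -0.02 in replicate 2. Nqo1, which reduces quinones with NADPH or NADH, had 1.56 in replicate 1 and 1.37 in replicate 2, and its adjusted p in limma's fit was 0.890. Gsr, the glutathione reductase, averaged 0.68 ± 0.36 (SD, n = 2) by its brightest probe, and its other 2 probes gave 0.08 and 0.14. In replicate 1 those 2 probes were at -0.14 and -0.20.

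Enzymes that make or use malate, citrate and isocitrate had 12 of 12 tested. On all 4 arrays 0 of them were higher and 1 lower, beside 10.6% and 9.95% of all genes. Their median was -0.03, with 0.04 in replicate 1 and -0.09 in replicate 2. The lower one was Slc25a1, the mitochondrial citrate carrier, at -0.23 ± 0.14 (SD, n = 2). Glycolysis had 15 of 15 tested, with 3 higher and 1 lower on all 4 arrays, beside the same shares of all genes. Their median was -0.02, with 0.07 in replicate 1 and -0.10 in replicate 2. The hexokinase Hk2 averaged 0.21 ± 0.05 and the phosphofructokinase Pfkm 0.15 ± 0.08 (SD, n = 2 each). Hk1 averaged -0.07 ± 0.06 (SD, n = 2), and its other probes past the filter ran from -0.19 to 0.05. None of these genes passed the test, with adjusted p-values of limma of 0.9998.

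**Figure D4:**
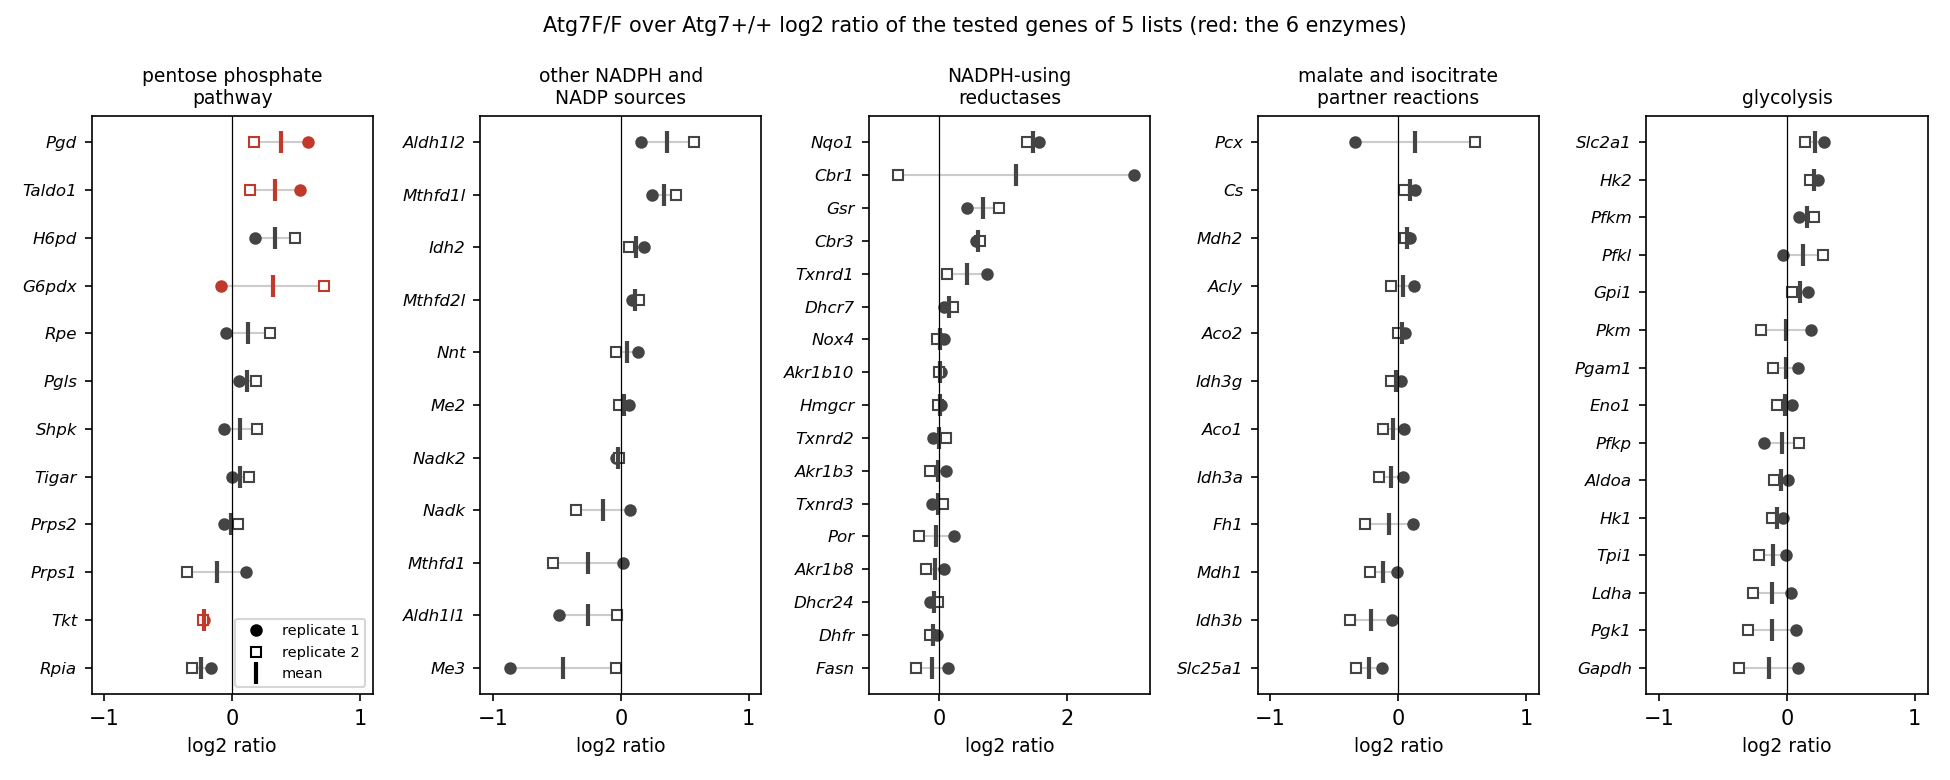
Log2 ratio of Atg7F/F over Atg7+/+ (x axis, wider for the reductases) of each tested gene (y axis) in 5 pathway lists, as replicate 1 (circles), replicate 2 (squares) and their mean (bars). Of the 6 enzymes, the 4 of the pentose phosphate pathway are drawn there in red, and Tkt alone lies below 0 in both replicates. Me1 and Idh1 are on none of the lists and are not drawn.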

How the data were processed

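The deposited scanner files give each spot's mean and local background intensity in 2 channels. Agilent Feature Extraction 10.1.1.1 wrote them, as the submitters' processing notes name it. The deposited value table holds log2 ratios by the authors. They equalled the ratio of the processed signals within 0.001 for 100% of probes on each array, turned to Atg7F/F over Atg7+/+. Coordinates of probes were read from the files, which use mm9.

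Mean intensities were corrected with normexp (offset 50, which pulls ratios of dim spots towards 0) and normalized by loess within arrays, control spots at weight 0, with limma 3.58.1 in R 4.3.3. Dye-swapped arrays were averaged. A probe was kept without a non-uniformity outlier and well above background in at least 1 genotype on all 4 arrays, which left 17109 probes. The brightest stood for each of 12367 genes. Levels per extract came from the same values after Aquantile normalization. limma's lmFit and eBayes tested the 2 ratios against 0 with 3.18 degrees of freedom. The replicate block is part of each ratio through the hybridisation scheme, and deviations of same-numbered extracts correlated at 0.18 over genes. The code was tested on simulated data. Genes outside the 6 were named by a rule: of each list, the 2 highest and 2 lowest means among genes with one sign on all 4 arrays, and the 5 genes nearest in pattern. The members, lists and rule were chosen with earlier results of these data known. The promoter motif was chosen after the files were seen, and narrower forms of it were also looked at and not kept. The number of arrays limits the precision.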

Additional observations from a re-analysis of the deposited data

How the results depend on the processing

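None of the 6 genes passed an adjusted p of 0.05 in limma under any alternative that allowed a test, and the lowest adjusted p was 0.345, for Tkt with the 4 arrays taken as independent. The direction of the mean held in these tests except for Me1, whose mean of 0.00 became -0.0045 with no background subtraction. Over the tested alternatives the mean ran from 0.32 to 0.42 for G6pdx, 0.37 to 0.47 for Pgd, 0.33 to 0.44 for Taldo1, -0.22 to -0.09 for Tkt and 0.09 to 0.35 for Idh1, and the median of the 6 was 0.33 with the processed signals, against 0.21. Leaving out 1 replicate left single values with no test: from -0.08 to 0.72 for G6pdx, 0.17 to 0.59 for Pgd, 0.14 to 0.53 for Taldo1, -0.23 to -0.22 for Tkt, -0.30 to 0.30 for Me1, -0.04 to 0.22 for Idh1 and -0.06 to 0.20 for the median of the 6. The median was -0.0605 without replicate 2, and G6pdx, Me1 and Idh1 were also below 0 then. Over all genes, limma called 0 higher and 0 lower, against 7 higher and 2 lower with the dye-swapped pair as a random block. With no replicate block, the extracts being unpaired, it called 1 gene higher, and it changed no call of the 6. At an unadjusted p below 0.05 the random block counted 776 genes, the 4 arrays as independent 1353, no replicate block 219, and no filter on dim probes 1007 of 28293. Of the 6, Pgd, Taldo1 and Tkt had an unadjusted p of limma below 0.05 under some alternatives. The lowest were 0.0239 for Pgd and 0.0245 for Taldo1, both with median centring. For Tkt it was 0.00937, with the 4 arrays as independent. G6pdx, Me1 and Idh1 were below 0.05 under none. Counts without a replicate could not be had, since no degrees of freedom remain. The alternative with the other Pgd probe was chosen after seeing the data.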

Other observations

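Among the folate enzymes listed around NADPH and NADP supply, the mitochondrial and cytosolic paralogs named here lay on different sides of 0 on average. This contrast was noticed in the values and not tested. Mitochondrial Aldh1l2 and Mthfd1l averaged 0.36 and 0.34 log2 units, while Aldh1l1 and Mthfd1, their cytosolic counterparts, averaged -0.26 ± 0.33 and -0.26 ± 0.39 (SD, n = 2 each). Aldh1l1 had -0.49 in replicate 1 and -0.03 in replicate 2, and Mthfd1 had 0.02 and -0.53. The mitochondrial malic enzymes Me2 and Me3 averaged 0.03 ± 0.06 and -0.45 ± 0.59, and mitochondrial Idh2 averaged 0.12 ± 0.08 (SD, n = 2 each). Cbr1, a cytosolic carbonyl reductase that uses NADPH, had 3.04 in replicate 1 and -0.65 in replicate 2. The names in this paragraph were picked with the values in view, and limma's adjusted p was above 0.05 for each.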
